A study of Homo sapiens with 8 samples.

Results

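The genes described here are 9 transcription factor genes of the AP-1 family and its immediate early relatives, out of 18457 protein-coding genes with a mapped start. They are the Fos genes FOS, FOSB, FOSL1 and FOSL2, the Jun genes JUN, JUNB and JUND, and ATF3 and EGR1. They were taken as a named list, chosen with earlier results of these data known, so comparisons with all genes are descriptive. Every deposited peak inside one of them or within 10 kb of either end was counted as theirs. The study mapped a pair of histone marks, acetylated lysine 9 of histone H3 (H3K9ac) and acetylated lysine 16 of histone H4 (H4K16ac), by sequencing immunoprecipitated chromatin (ChIP-seq). The cells were KGN, an established human ovarian granulosa tumour line, at the same range of passages in both groups. One group received 1 mM butyrate for 6 h and the control group received none. Each group had 1 library per antibody, so every difference below is between 2 libraries, has no replicate check and was not tested.

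AP-1 is a dimer of a Jun protein with a Fos, ATF or further Jun protein, joined through leucine zippers, that binds the AP-1 site in promoters and enhancers. Many of its genes, like EGR1, are immediate early genes: serum, gonadotropins or stress switch on their transcription within minutes through factors already in the cell, such as serum response factor, its ELK partners and CREB. In granulosa cells, AP-1 factors and EGR1 are known as part of the response to the ovulatory surge of luteinizing hormone. Butyrate, a fatty acid made by gut bacteria, blocks histone deacetylases, the enzymes that remove such marks. H3K9ac lies mainly at starts of active genes, but a peak is not a measure of transcription, and no RNA was analysed.

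With butyrate, H3K9ac at most of these genes was broader, and it reached farther upstream. FOSL2, JUNB and JUND carried the broadest domains with butyrate. FOSB and EGR1 had the narrowest ones in control, where ATF3 had none at its listed starts. The height of the mark over its local background was higher at some genes and lower at others. Most H4K16ac peaks near these genes were weak, with a q above 0.05 in both conditions. The promoters of 5 of the genes are shown first, because they show how H3K9ac lay over the start: across it at FOS, across it with butyrate alone at FOSB, and with peak edges or gaps inside the printed bases at FOSL2, JUN and EGR1. They are RefSeq sequences of GRCh38.p14 and run 5′ to 3′ on the gene's own strand, from 250 bases before the start to 50 after it. Capitals mark the motif matches named in the paragraphs below the sequences.
FOS, plus strand, chr14:75278578-75278877: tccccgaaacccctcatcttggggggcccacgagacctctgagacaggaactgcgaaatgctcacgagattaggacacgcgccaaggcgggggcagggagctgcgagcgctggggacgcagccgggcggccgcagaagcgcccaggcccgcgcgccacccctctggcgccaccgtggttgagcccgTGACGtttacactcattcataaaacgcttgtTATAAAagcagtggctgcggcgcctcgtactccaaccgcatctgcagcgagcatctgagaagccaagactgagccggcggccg
FOSB, plus strand, chr19:45467746-45468045: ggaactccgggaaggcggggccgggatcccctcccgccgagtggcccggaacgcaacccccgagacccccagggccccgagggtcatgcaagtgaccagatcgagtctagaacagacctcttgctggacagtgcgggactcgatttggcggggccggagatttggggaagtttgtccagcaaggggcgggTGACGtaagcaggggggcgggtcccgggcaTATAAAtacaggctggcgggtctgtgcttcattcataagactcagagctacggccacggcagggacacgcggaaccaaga
FOSL2, plus strand, chr2:28392608-28392907: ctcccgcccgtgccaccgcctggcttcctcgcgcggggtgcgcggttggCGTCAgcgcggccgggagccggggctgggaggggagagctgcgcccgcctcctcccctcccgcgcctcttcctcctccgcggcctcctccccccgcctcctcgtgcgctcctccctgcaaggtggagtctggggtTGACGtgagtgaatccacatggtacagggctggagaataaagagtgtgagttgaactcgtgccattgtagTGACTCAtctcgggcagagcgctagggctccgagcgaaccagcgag
JUN, minus strand, chr1:58783998-58784297: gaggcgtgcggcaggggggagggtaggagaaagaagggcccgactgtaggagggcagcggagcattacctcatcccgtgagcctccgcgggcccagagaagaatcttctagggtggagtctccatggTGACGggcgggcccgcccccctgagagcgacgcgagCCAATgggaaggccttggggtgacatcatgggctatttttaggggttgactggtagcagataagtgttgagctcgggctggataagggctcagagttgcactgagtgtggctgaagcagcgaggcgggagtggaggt
EGR1, plus strand, chr5:138465229-138465528: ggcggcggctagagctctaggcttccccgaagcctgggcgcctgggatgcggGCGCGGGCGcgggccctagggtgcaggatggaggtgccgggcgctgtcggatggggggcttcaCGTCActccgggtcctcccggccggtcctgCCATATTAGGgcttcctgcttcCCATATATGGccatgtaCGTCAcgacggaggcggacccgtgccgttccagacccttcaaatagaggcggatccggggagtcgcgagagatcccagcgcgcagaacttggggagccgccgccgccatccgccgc

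The promoter sequences were searched on both strands for letters of binding motifs, and each match is a description and not a site of binding. A promoter was in the RefSeq table for 8 of the 9 genes. The core letters of the cyclic AMP response element, TGACG, were in the promoters of 7 of these 8 genes and in 27.9% of all 22131 promoters. Positions are counted in bases from the start, with a minus sign upstream. In FOS the core lay at −64 to −60 and in FOSB at −60 to −56, in both cases just upstream of a TATA box, TATAAA. The TATA box began at −33 in FOS, at −30 in FOSB and at −31 in JUNB. ATF3 had the same letters at −230 from the downstream of its listed starts, and 9.46% of all promoters held them. The whole palindrome TGACGTCA, which contains the core on both strands, was found in JUND at −200 to −193 and in 2.26% of all promoters.

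EGR1 was the member with CArG boxes, the element that serum response factor binds. It had 2, at −105 to −96 and at −83 to −74, and 1.25% of all promoters had at least 1. EGR1 also held a match to the EGR site GCGNGGGCG, as did 12.2% of promoters. The serum response element that FOS is known for lies upstream of the window searched. The AP-1 site TGANTCA was in FOSL2, at 4 to 10, and in 6.15% of promoters. Only these exact letters were searched, so similar ones such as TGACATCA, which the JUN promoter above holds, were not counted. CCAAT boxes, letters CCAAT, were in ATF3, JUN, JUNB and JUND and in 34.6% of promoters. Base composition set the listed starts of ATF3 apart. The sequences there had 48.0% and 46.3% G and C, with CpG at 0.239 and 0.0633 of the number expected. The medians over all promoters were 62.3% and 0.738. Whether either ATF3 sequence is a promoter used in these cells was not tested. The other genes with a promoter sequence had between 62.0% (JUN) and 77.0% (JUND) G and C.

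The H3K9ac list held 79356 peaks with butyrate and 22215 in control, at implied depths of 29.4 M and 24.3 M reads (M, 1000000 reads). The lowest −log10 p listed was 2.97 with butyrate and 3.46 in control, so weaker peaks entered the butyrate list. The H4K16ac lists held 33752 peaks with butyrate and 73586 in control, of which 381 and 29141 had a q of 0.05 or less. IgG, a nonspecific antibody, gave 2 peaks with butyrate and 5 in control, and 0 of them near the 9 genes. Of 10 granulosa marker genes, 4 had an H3K9ac peak at a start with butyrate (INHA, FOXL2, FST and AMHR2) and 2 in control (INHA and FOXL2), and defining markers such as FSHR, CYP19A1 and AMH had none in either. Of 7 marker genes of other cell types, 2 had such a peak in both conditions (ZP3 of the oocyte and CD68 of macrophages), and the immune marker PTPRC and the endothelial markers PECAM1 and CDH5 had none.

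A start peak is a peak that covers a gene's start or reaches within 1 kb of it, and its width is that of the widest such peak. H3K9ac start peaks were present at 9 of the 9 genes with butyrate, against 67.2% of all genes, and at 8 of 9 in control, against 57.9%. The additional gene was ATF3, with a weak peak of 434 bp at a fold of 2.79. Its lack of a control start peak depends on which starts are listed, as described below. Of the 8 control start peaks, 0 were lost, against 0.318% over all genes. The median width was 2583 bp with butyrate (n = 9 genes) and 2076 bp in control (n = 8), against 1590 and 1255 bp over all genes with a start peak. Of the 8 genes with a start peak in both lists, 7 had a wider one with butyrate, where 76.2% of all such genes did. It was at least 1.5 times as wide at 6 of 8, against 42.5%. None of the 8 was at most 1/1.5 as wide, against 6.3%, and FOSL1 was the one that was narrower. The median width ratio, butyrate over control, was 1.97 over the 8 genes and 1.36 over all 10650 genes with both peaks.

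**Figure D1:**
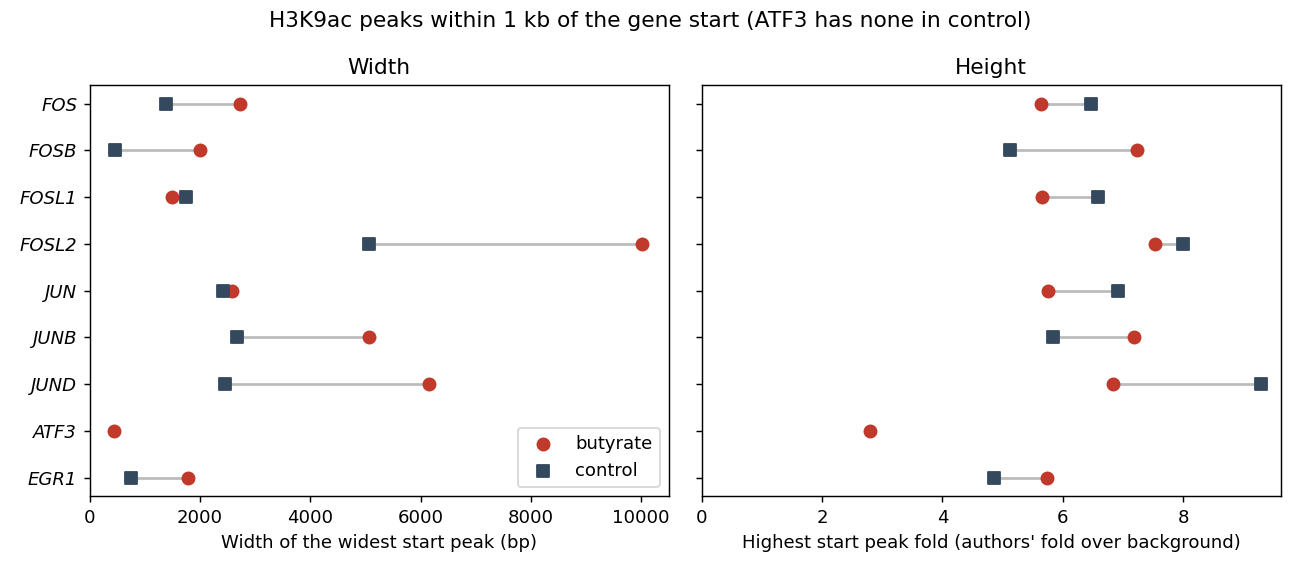
H3K9ac start peaks of the 9 genes, 1 library per condition; circles are butyrate and squares are control. Left, width of the widest start peak in bp; right, the authors' fold of the highest start peak over local background. FOSL2, JUNB and JUND are the widest with butyrate, while the folds of FOS, FOSL1, FOSL2, JUN and JUND lie below their control values.

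**Figure D2:**
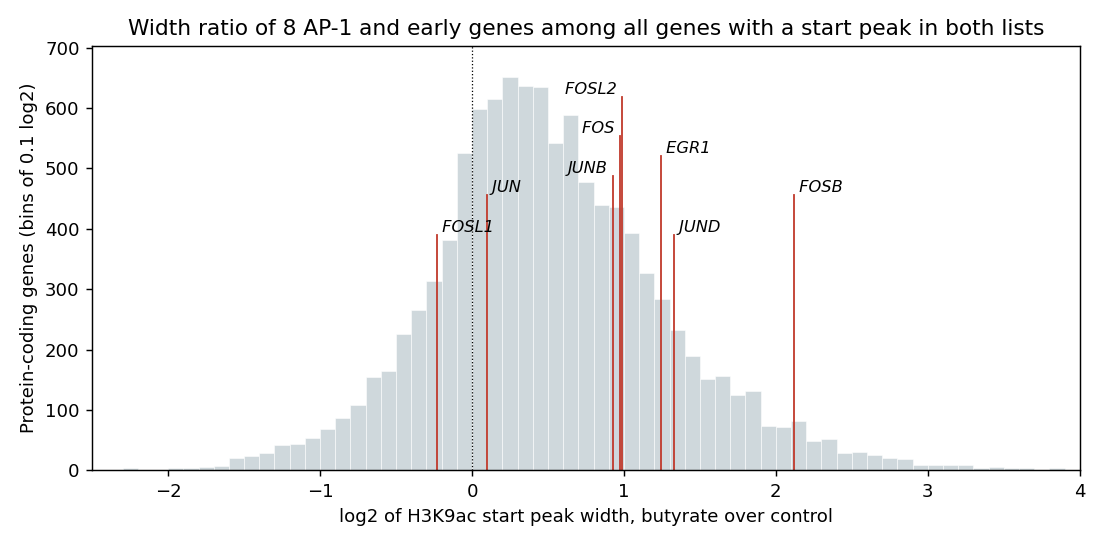
Distribution of the log2 ratio of H3K9ac start peak width, butyrate over control, over 10650 protein-coding genes (grey bars, number of genes per bin), with 8 of the genes as red lines, whose heights serve only to separate the labels. FOSL1 lies below 0 and FOSB lies farthest to the right; ATF3 has no control start peak and no ratio.

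FOS encodes c-Fos, the founding partner of JUN in AP-1. Its H3K9ac start peak was 2722 bp wide with butyrate, chr14:75276652-75279373, and 1388 bp in control, chr14:75278537-75279924, a ratio of 1.96. The butyrate peak ran from −2176 to 545 bp around the start, and the control peak from −291 to 1096 bp. Both covered the whole promoter printed above, and the butyrate peak reached farther upstream while the control peak reached farther into the gene. The summit was lower over background with butyrate, at a fold of 5.63 (21 fragments over an expected 2.91), against 6.47 in control (19 fragments over 2.09). The fold is the authors' ratio of fragments piled up at the summit to local background, with a small constant added to both. The fragment numbers were recovered from the fold and the p-value, so plain division of them does not return the fold. Each condition had 3 H3K9ac peaks around FOS, which covered 65.7% of the gene body with butyrate and 46.0% in control.

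FOSB encodes a Fos protein known for its long-lived splice form in neurons. It had the largest width ratio of the 9 genes, 4.35, with a start peak of 2001 bp with butyrate and 460 bp in control. The control peak lay inside the gene, from 733 to 1192 bp after the start, at a fold of 5.13. With butyrate the peak ran from −761 to 1239 bp around the start at a fold of 7.24, so that the TATA box and the TGACG core of its promoter lay under H3K9ac in the butyrate list alone. FOSB also had 10 butyrate peaks in its window against 2 in control. They covered 7529 bp with butyrate and 926 bp in control, a ratio of 8.13, the highest of the 9 genes. The control width of FOSB was at percentile 6.86 of all genes with a start peak, and its butyrate width at 64.8.

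FOSL1 and FOSL2 encode Fra-1 and Fra-2, Fos proteins that lack a strong activation domain and are known to build up later than FOS. FOSL1 had the opposite change in width to the others: its start peak was 1491 bp with butyrate and 1745 bp in control, a ratio of 0.854. Both began close to the start, 179 bp after it with butyrate and 177 bp after it in control. The fold was 5.66 with butyrate and 6.59 in control. The window of FOSL1 still held 13 peaks with butyrate against 5 in control, but part of them lay at the starts of its neighbours, among them CCDC85B and FIBP. Upstream of its start, 2390 bp were covered with butyrate and 0 in control.

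FOSL2 had the broadest start peak of the 9 genes in either condition, 10024 bp with butyrate and 5071 bp in control. These were at percentiles 99.9 and 99.8 of all genes with a start peak. The butyrate peak began 8 bp after the start, within the AP-1 match shown above, and overlapped 6 separate control peaks. A second butyrate peak of 3732 bp ended 176 bp before the start, which left a gap over most of the core promoter. The control peak had no such gap and ran from −953 bp into the gene. H3K9ac covered 81.7% of the FOSL2 gene body with butyrate and 27.6% in control. The highest fold of any control peak near the 9 genes was just upstream of FOSL2, at 10.2, and the butyrate peak at that place had a fold of 4.85. Where peaks less than 500 bp apart were joined first, FOSL2 measured 13939 bp with butyrate and 9964 bp in control, a ratio of 1.4.

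**Figure D3:**
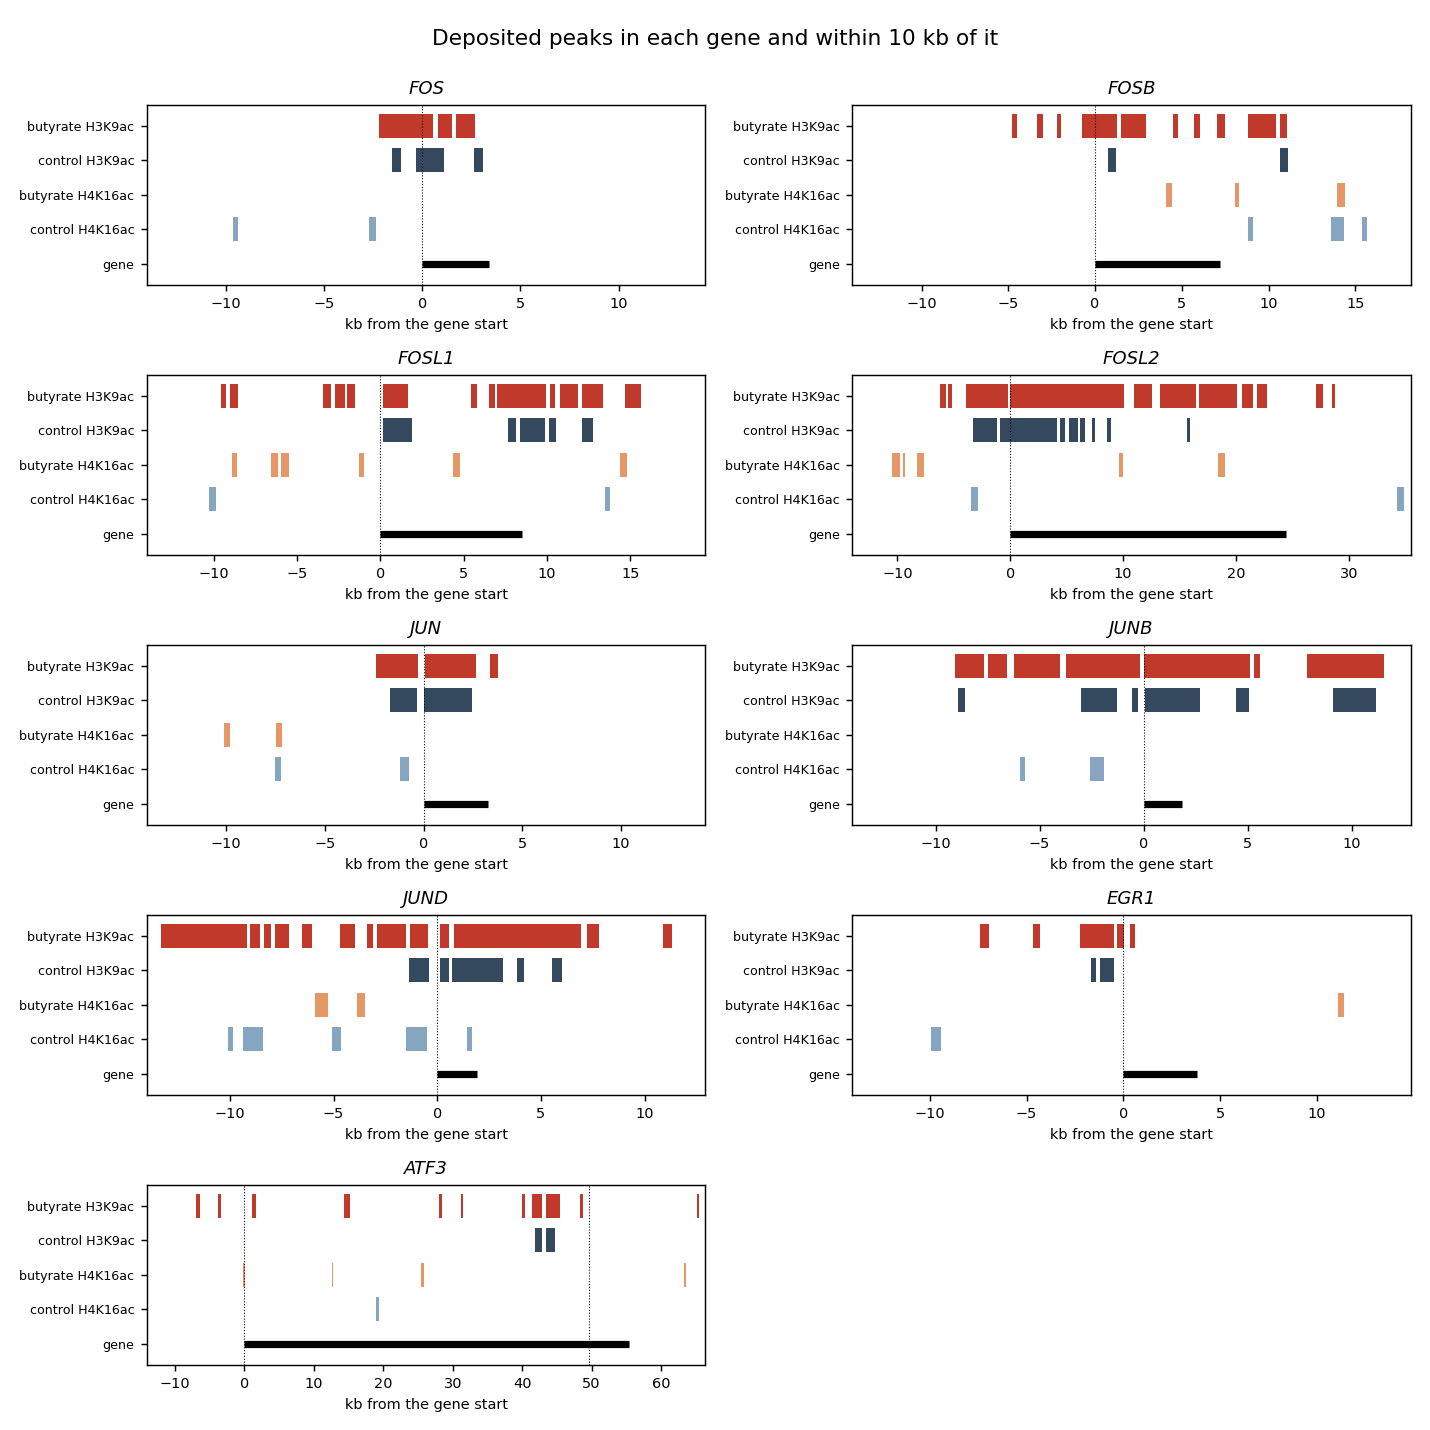
Deposited peaks in and within 10 kb of each gene, drawn to scale in kb from the gene's start (dotted line; ATF3 has 2 listed starts), with transcription to the right. In each panel the rows from top to bottom are butyrate H3K9ac, control H3K9ac, butyrate H4K16ac, control H4K16ac and the gene (black). H3K9ac rows are more filled with butyrate, mostly beside peaks also present in control, and the start itself lies in a gap at JUN, JUNB and JUND in both conditions.

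JUN encodes c-Jun, the main dimer partner of Fos proteins, and its H3K9ac was the least different between the conditions. The start peak was 2583 bp wide with butyrate and 2408 bp in control, a ratio of 1.07. It lay inside the gene and began 48 bp after the start with butyrate and 43 bp after it in control. A second peak lay upstream, 2108 bp wide with butyrate and 1368 bp in control, and its near edge was 291 and 328 bp from the start. Apart from its last few bases, the promoter printed above lay in the gap between these peaks in both conditions. H3K9ac covered 5085 bp of the window with butyrate and 3776 bp in control, a ratio of 1.35, the lowest of the 9 genes. The upstream peak is also near the start of JUN-DT, a divergent transcript, and cannot be assigned to one of the pair.

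JUNB and JUND encode Jun proteins with weaker activity than c-Jun at many targets, and JUND is known for steady rather than induced expression. The JUNB start peak was 5072 bp wide with butyrate and 2668 bp in control, a ratio of 1.9, at folds of 7.18 and 5.84. JUNB is short, and H3K9ac covered 98.0% of its body with butyrate and 97.2% in control. The difference lay outside the gene: 8117 bp upstream with butyrate against 2368 bp in control, and 7284 bp downstream against 3579 bp. Of the whole JUNB window, 78.8% was covered with butyrate and 35.4% in control, the highest share of the 9 genes in each condition. Some of these peaks reach listed starts of the neighbours HOOK2, PRDX2 and THSD8.

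The JUND start peak was 6160 bp wide with butyrate and 2452 bp in control, a ratio of 2.51. The butyrate peak extends beyond the end of JUND toward the neighbour IQCN and overlapped 3 control peaks. Its highest start peak had a fold of 6.83 with butyrate and 9.29 in control, the lowest ratio of folds among these genes. JUND had 2 further start peaks in each condition. At 147 to 574 bp after the start lay a butyrate peak of 428 bp, and a control peak of 426 bp lay at nearly the same place. Upstream, the 909 bp butyrate peak and the 947 bp control peak also matched. The peaks nearest the start of JUND were thus alike in position and width, and the added bases were farther out. Over the JUND window, H3K9ac covered 13672 bp with butyrate and 4646 bp in control.

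ATF3, a stress-induced factor that forms dimers with Jun proteins and often represses, was the member with a start peak in the butyrate list alone. Of all genes with no control start peak, 22.6% had one with butyrate. The ATF3 peak was weak: 434 bp wide, ending 908 bp before the downstream start, with a fold of 2.79 and a −log10 q of 2.61. It was absent when the lists were limited to equal numbers of top peaks, to a fold of at least 5 or to a −log10 q of at least 5. The stronger H3K9ac of ATF3 was inside the gene in both conditions. One peak there began 43383 bp after the upstream start in both lists and was 2021 bp wide with butyrate and 1425 bp in control, at folds of 6.31 and 7.72. A second, 1493 bp wide with butyrate and 1079 bp in control, lay just upstream of it. ATF3 is known to have a distal and a proximal promoter, and whether these inner peaks mark one of them was not tested. In control these inner peaks lay 4804 and 6698 bp from the nearest listed start. The absence of a control start peak at ATF3 thus depends on which starts are listed. With the start peak, 9 of the 11 butyrate peaks in its window had no control counterpart, against 51 of 76 over the 9 genes. The folds of these 9 peaks ran from 2.19 to 6.06.

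EGR1 encodes a zinc finger factor that is not part of AP-1 but is induced by the same signals. Its start peak was 1783 bp wide with butyrate and 752 bp in control, a ratio of 2.37, at folds of 5.74 and 4.85. Both ended at nearly the same place, 477 bp before the start with butyrate and 474 bp in control, so the butyrate peak was longer on the upstream side. A separate butyrate peak of 322 bp covered the start itself, from −311 to 10 bp, and so lay over both CArG boxes shown above. It was weak, with a fold of 3.6, and had no control counterpart. H3K9ac covered 7.01% of the EGR1 body with butyrate and 0.0% in control, the lowest shares of the 9 genes. Under the limit of a fold of at least 5, EGR1 had a start peak with butyrate and none in control.

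A wider peak was not always a higher one. The fold of the highest start peak was higher with butyrate at 3 of 8 genes (FOSB, JUNB and EGR1), against 41.3% of all genes with both peaks. It was lower at FOS, FOSL1, FOSL2, JUN and JUND. At 4 of 8 genes the widest start peak was wider and the highest was of lower fold with butyrate. This was so at 41.2% of all genes with both peaks, a share close to that of the 8. The widest and the highest start peak can be different peaks, as at JUN in control and at JUND with butyrate. The median ratio of folds, butyrate over control, was 0.906 over the 8 genes and 0.937 over all genes. The fold divides by the background of the same library, so it does not compare absolute amounts of acetylation between the conditions.

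Relative to control, coverage was higher with butyrate in most intervals on both sides of the starts. Between −5000 and −2001 bp, 9 of 9 genes had some H3K9ac with butyrate and 2 of 9 in control (FOSL2 and JUNB). Among genes with a start peak in both lists this was 8 of 8 with butyrate, against 37.2% of all such genes, and 2 of 8 in control, against 12.5%. From −2000 to −501 bp, the median coverage of the 9 genes was 100% with butyrate and 52.1% in control. After the start, it was 90.4% with butyrate and 71.4% in control from 0 to 499 bp, and 34.2% and 15.0% from 2000 to 4999 bp. From 5000 to 9999 bp it was 40.9% with butyrate and 0.0% in control, with some coverage at 5 and 4 genes. From 500 to 1999 bp it was lower with butyrate, 82.3% against 89.9% in control. The intervals were chosen with the peak positions known. Shares over all genes were computed for the interval from −5000 to −2001 bp alone. The other medians thus have no background and cannot be told from a general widening. The start base itself was under H3K9ac at 3 of 9 genes with butyrate (FOS, FOSB and EGR1) and at 2 of 8 in control (FOS and FOSL2), against 68.6% and 61.0% of all genes with a start peak. At JUN, JUNB and JUND the mark flanked the start on both sides in both conditions.

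Over the whole windows, the 9 genes had 76 H3K9ac peaks with butyrate and 35 in control. Summed over all genes the counts were 94181 and 32356, a mean of 5.1 and 1.75 per gene, so the excess in peak number was relatively larger over all genes than over the 9. These covered 95274 bp with butyrate and 37559 bp in control, 32.9% and 13.0% of the bases. Coverage was at least 1.5 times as high with butyrate at 8 of 9 genes, JUN being the exception, where 70.5% of all genes covered in both did so. The median coverage ratio was 2.59 over the 9 genes and 1.99 over all genes. More peaks were listed with butyrate at 8 of 9 genes, against 81.2%, a share close to the background, and FOS had 3 in each condition. Upstream flanks held 30969 bp with butyrate and 9554 bp in control, gene bodies 42142 and 19450 bp, and downstream flanks 22163 and 8555 bp. Of the peaks counted, 11 with butyrate and 7 in control lay within 1 kb of the start of another gene.

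**Figure D4:**
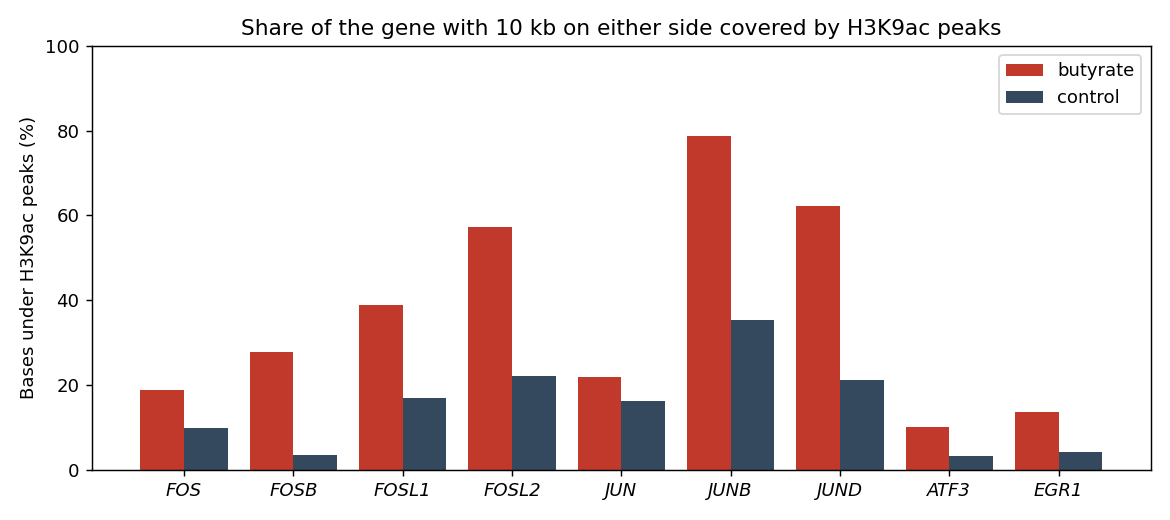
Percentage of bases under H3K9ac peaks in each gene with 10 kb on either side; left bar butyrate, right bar control, 1 library each. All 9 genes have the higher share with butyrate, from 10.1% at ATF3 to 78.8% at JUNB, against 3.32% and 35.4% for the same genes in control.

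All 35 control H3K9ac peaks in these windows overlapped a butyrate peak. Of the 76 butyrate peaks, 25 overlapped a control peak and 51 did not. The whole butyrate list was longer, with 79356 peaks against 22215 in control, and the share without a counterpart over it was not counted. The 51 were smaller and weaker, with a median width of 466 bp and a median fold of 3.48, against 2021 bp and 5.74 for the 25. Only 5 of the 51 had a fold of at least 5, and 3 had a −log10 p below the lowest in the control list and could not have been listed there. With equal numbers of top peaks from both lists, the windows held 33 butyrate and 35 control peaks, while the bases covered were 73749 with butyrate and 37559 in control. The number of peaks thus depended on the lengths of the lists. Such limits drop whole peaks and cannot trim their edges, so they do not test the widths. Just inside the limit of 10 kb the outermost butyrate peak was at ATF3, 9837 bp from the gene with a fold of 2.19. Just outside it a butyrate peak lay 10362 bp from FOSB with a fold of 7.76, and a control peak lay 10062 bp from JUND with a fold of 5.71.

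H4K16ac, a mark placed mainly by the acetyltransferase KAT8, had about as many peaks around the 9 genes in both conditions. The peak names in both lists labelled H4K16ac carry the letters k12, and which lysine the antibody read cannot be told from the files. There were 23 peaks with butyrate and 20 in control, covering 8519 and 8507 bp. The median per gene was 2 peaks with butyrate and 2 in control, against 1 and 2 over all genes, whose windows were longer, with a median of 45222 bp against 23825 bp for the 9 genes. Summed over all genes, the windows held 29978 peaks with butyrate and 78858 in control, a mean of 1.62 and 4.27 per gene. At least 1 lay in the window of 7 genes with butyrate, against 53.1% of all genes, and of 9 in control, against 64.3%. A start peak was present at 1 gene with butyrate, against 4.31% of all genes, and at 2 in control, against 19.0%. With butyrate this was ATF3, 1 of 7 genes without a control start peak, against 3.08% of all such genes. There a 283 bp peak lay across the upstream start at a −log10 q of 0.795. In control it was JUN, with a 462 bp peak at a −log10 q of 0.63, and JUND, with a 994 bp peak at a −log10 q of 2.57. At JUN and JUND no butyrate peak reached within 1 kb of the start. Of all genes with a control H4K16ac start peak, 90.5% had none with butyrate.

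Most of these H4K16ac peaks had a q above 0.05. A q of 0.05 or less was reached by 1 of the 23 butyrate peaks, upstream of FOSL2 at a −log10 q of 1.54. It was reached by 6 of the 20 control peaks. Over the whole lists, 381 of 33752 butyrate peaks and 29141 of 73586 control peaks reached it. The strongest was a control peak of 987 bp at JUND, 8382 bp upstream, with a fold of 4.64 and a −log10 q of 3.59. Fewer peaks were listed with butyrate at 3 of 9 genes (FOS, JUNB and JUND), against 72.4% of all genes with a peak in either list. More were listed at 3 of 9 (FOSL1, FOSL2 and ATF3), against 19.1%. FOSL1 had 6 with butyrate and 2 in control, FOSL2 5 and 2, and ATF3 4 and 1. JUND had 2 with butyrate and 5 in control. At q of 0.05 or less the counts were 1 gene with butyrate and 5 in control, with no share of all genes given at this limit. The genes with more butyrate peaks thus rest on peaks above it. Only 2 peaks of each list overlapped one of the other condition, at FOSB and JUN. Of the H3K9ac peaks, 4 of 76 with butyrate and 5 of 35 in control overlapped an H4K16ac peak of the same condition. For both kinds of overlap, shares over all peaks were not counted, and the counts depend on the lengths of the lists.

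Related genes were taken from lists by their known roles. Among 14 other AP-1 family and dimer partner genes, 11 had an H3K9ac start peak with butyrate and 10 in control, beside the 67.2% and 57.9% of all genes. The added one was BATF3, a dendritic cell factor that pairs with Jun proteins, with a 1663 bp butyrate peak at a −log10 q of 15.5 and no control peak. The median width ratio over the 10 genes with both peaks was 1.18, below the 1.36 of all genes, and 3 of 10 were at least 1.5 times as wide, beside 42.5% of all genes. MAFF, a small Maf protein, had the highest ratio at 3.34, with 3006 bp with butyrate and 900 bp in control. ATF2, a partner of c-Jun, had 2182 bp with butyrate and 1199 bp in control. ATF7, a close relative of ATF2, had the lowest at 0.504, with 1024 bp with butyrate and 2032 bp in control. H4K16ac start peaks were present at 1 gene with butyrate (BATF2) and at 4 in control (NFE2L2, ATF2, ATF4 and ATF7). Of all genes, 4.31% had one with butyrate and 19.0% in control.

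Among 27 other immediate early genes measured, 24 had an H3K9ac start peak with butyrate and 21 in control, beside the same 67.2% and 57.9%. The 3 added were EGR2, a paralog of EGR1, with 1449 bp at a −log10 q of 10.4, GEM, a small GTPase, and ARC, a gene of synaptic plasticity. The median width ratio over 21 genes was 1.45, and 10 of 21 were at least 1.5 times as wide, close to the 42.5% of all genes. DUSP5, a phosphatase that inactivates ERK in the nucleus, had the highest ratio of 7.06, with 4895 bp with butyrate and 693 bp in control. NR4A1, an orphan nuclear receptor, followed with 1440 bp with butyrate and 279 bp in control. IER2 was lowest at 0.773, with 1754 bp with butyrate and 2269 bp in control. H4K16ac start peaks were listed at 1 of these genes with butyrate (NR4A1) and at 5 others in control, beside 4.31% and 19.0% of all genes. Of the 5, IER2 had the highest −log10 q, 2.18, followed by NR4A2 and DUSP1.

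Among 16 genes of the MAP kinase cascade and of serum response factor, which carry signals to the immediate early genes, 16 had an H3K9ac start peak in both conditions, again beside 67.2% with butyrate and 57.9% in control. The median width ratio was 1.53, and 8 of 16 were at least 1.5 times as wide, also near that 42.5%. ELK3, a partner of serum response factor, had 1587 bp with butyrate and 418 bp in control, and MAP2K1, the kinase that activates ERK, had 3294 and 1468 bp. SRF itself was lowest, with 2259 bp with butyrate and 2749 bp in control, a ratio of 0.822. H4K16ac start peaks were listed at 0 of the 16 genes with butyrate and at 2 in control, MRTFA and MAP2K2. These counts stand beside 4.31% of all genes with butyrate and 19.0% in control. Over these lists the median ratios thus lay on both sides of that of all genes. The 3 genes whose pair of start widths came nearest to the median pair of the 8 genes, by distance on the log2 scale over 2 libraries, were PPIF (2663 bp with butyrate and 2046 bp in control), MISP3 and TMEM248.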

How the data were processed

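Each list is 1 library's peak call. MACS2 2.1.0 and CASAVA 1.7 are named in the submitters' processing notes; the sources used here give no aligner or duplicate filter. The deposited fold is the ratio of the pileup at the summit to its local background, with a small constant added to both. The deposited p- and q-values are −log10 values, and the deposited score of each peak repeats one of these. All of these are the authors' values and served only to describe, rank and filter peaks. Depth was recovered from fold and p for H3K9ac and control H4K16ac, assuming an effective genome of 2.7 Gb. Pileups of the butyrate H4K16ac list were not whole numbers, so its depth is unknown.

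Rows sharing at least 1 bp were merged, and chromosomes 1 to 22 and X were kept. The notes name hg19, but the authors' gene starts were a median of 43 bp from GRCh38.p14 RefSeq starts, with 99.4% of 13608 genes within 100 kb, so coordinates are read as GRCh38. Deposited starts are counted from 0 and printed with 1 added. Gene starts came from the RefSeq promoter table, or for 2646 genes, FOSL1 among them, from the RefSeq gene table with the authors' strand. Python 3.11.15, pandas 2.3.3 and scipy 1.17.1 were used, and the peak arithmetic was tested on simulated data. The 9 genes and all gene lists were chosen with earlier results of these data known. From each list the text names the genes whose start peak was in 1 condition alone, the first 3 per mark and direction by −log10 q, with the 2 highest and the lowest width ratios. With 1 library per group no test was run. Alternatives were list length, limits on fold and q, the start window, the source of starts, the joining of peaks and the width of the flanks. The 2 input samples were not analysed here.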

Additional observations from a re-analysis of the deposited data

How the results depend on the processing

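No paired analysis was possible because each condition has 1 library per antibody. The median H3K9ac width ratio lay between 1.96 and 2.45 under the alternatives run, over the genes that had both widths, while that of all genes lay between 1.32 and 1.46. Limits on fold, q or list length leave or drop whole peaks, so an unchanged width under them was fixed in advance; a fold of at least 5 left 7 genes without EGR1. Joining peaks less than 500 bp apart gave a median width of 4844 bp with butyrate and ratios of 3.49 for FOS, 7.98 for FOSB and 4.46 for JUNB. Requiring the start base to be covered left 3 genes with butyrate and 2 in control, with a median control width of 3230 bp, and the ratio of 1.96 is then that of FOS alone. H3K9ac peaks in the windows numbered 33 with butyrate for lists of equal length, and 39 where −log10 q was 5 or more. At a fold of at least 5 there were 24 peaks and 58392 bp with butyrate, and 18 peaks in control. Gene bodies alone held 32 peaks and 42142 bp with butyrate, and 19 peaks and 19450 bp in control.

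Many H4K16ac counts moved with the limits. For lists of equal length the control list, cut to its strongest peaks, gave 7 peaks at 5 genes and 1 start peak, while the butyrate counts of 23 peaks, 7 genes and 1 start peak stayed. At q of 0.05 or less there were 0 start peaks and 1 peak at 1 gene with butyrate, and 1 start peak and 6 peaks at 5 genes in control. A start window of 2.5 kb gave 2 genes with butyrate and 4 in control. Flanks of 5 kb gave 10 peaks with butyrate and 9 in control, and gene bodies alone gave 7 peaks at 4 genes with butyrate and 2 peaks at 2 genes in control. Broader peaks with butyrate cannot be told apart from the greater depth and the lower limit on p of that library.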
